A study of Mus musculus with 24 samples.

Results

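Early lymphoid genes were followed here across 24 RNA-seq libraries of cells sorted from mouse embryos. The set holds 10 genes that were chosen by name and not by any measured value: the receptor chains Il7r and Il2rg, the recombinase genes Rag1 and Rag2, the immunoglobulin gene Ighm, Cd27 and Ltb of the TNF receptor and TNF families, the transcription factor genes Tcf7 and Lef1, and the antisense RNA gene Ets1os. Of these 10, 9 were matched by gene name among the 29716 genes of the count table, and 7 of them passed the low-count filter and stood among the 15618 genes tested. Ets1os matched no gene name in the tables and was not analysed here. Rag1 and Rag2 fell below the filter and are given by their counts.

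The series asks which genes differ when the Notch ligand Dll4 is blocked in 3 populations of CD31+ cells, CD31 being a surface protein of endothelium and of early blood cells. All embryos were C57BL/6J mice at E10.5 (embryonic days), when blood cells form from the endothelium of the aorta. Each embryo was injected into the heart with anti-Dll4 antibody or with anti-human IgG as the control and then kept for 5 h in a myeloid culture medium. In both arms that medium held hydrocortisone at 10 µM and IL-3 at 10 ng/ml, with the injected antibody at 5 µg/ml, so the IgG embryos are cultured controls and not fresh tissue. The populations, each sorted as CD31+, were Kit+ CD45- cells, Kit+ CD45+ cells and a Kit-negative fraction, Kit- CD41+ CD45- cells, with 4 replicates per population and antibody (6 groups). The labels do not say how many embryos a library holds, so each p-value measures only the spread between these libraries, which may be technical.

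Interleukin 7 signals through a receptor made of the Il7r chain and the common gamma chain encoded by Il2rg, and this signal sustains early B, T and innate lymphoid cells. Rag1 and Rag2 form the recombinase that cuts immunoglobulin and T cell receptor genes, and their expression marks lymphoid commitment in bone marrow, thymus and fetal liver. Tcf7 and Lef1 encode HMG-box partners of beta-catenin that act early in the T lineage and are also used by other cell types.

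Library totals ran from 8718351 to 11379830 counts. Levels are CPM, which relate counts to the size of their library after TMM, a correction for composition, and are given as means ± SD over 4 libraries (n = 4). A floor of 3 counts per library corresponded to 0.2 to 0.656 CPM. The reads were amplified and carry no molecular identifiers, so every floor covers counting error only. The transcript of the CD45 gene, Ptprc, followed the gates: it stood at 82.3 ± 33 CPM in Kit+ CD45+ cells under IgG, at 0.811 ± 0.785 CPM in Kit+ CD45- cells, and had 0 counts in the 4 Kit- CD41+ CD45- libraries. Globin genes took 0.00816% to 0.02259% of counts in Kit+ CD45+ libraries, 4.177% to 14.11% in Kit- CD41+ CD45- libraries and 16.85% to 49.3% in Kit+ CD45- libraries. These shares did not overlap between the populations, so red cell content and population cannot be told apart.

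The gene set is named for the lymphoid roles of its members, and the sorted cells were not a lymphoid sort. In the 8 Kit+ CD45+ libraries the summed level of 6 mature B cell markers was 0.0896 to 2 CPM, with Cd22 at 0 in every IgG library and Fcmr at 0 in every anti-Dll4 library. The 6 mature T or NK cell markers in the table summed to 1.96 to 12.5 CPM there, with Ncr1 at 0 in all 8 libraries. In Kit+ CD45- libraries the B cell sum was 0 to 1.64 CPM and the T or NK cell sum 0 to 6.42 CPM. In Kit- CD41+ CD45- libraries these sums were 0 to 0.302 and 0 to 1.71 CPM. The summed level of 12 macrophage markers was 256 to 2640 CPM in the Kit+ CD45+ libraries. It was 24.5 to 47.8 CPM in Kit+ CD45- and 87.2 to 132 CPM in Kit- CD41+ CD45- libraries. Endothelial markers, 12 in all, summed to 1830 to 2580, 599 to 2240 and 357 to 639 CPM in the same order. Granulocyte-monocyte progenitor markers summed to 182 to 588, 14.2 to 33 and 6.59 to 22.8 CPM. In bulk libraries such as these, fewer cells of a type and less RNA per cell cannot be told apart.

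Promoter sequence was at hand for 8 of the 10 genes, from RefSeq on GRCm38.p6 (the mm10 assembly). The windows below are shown because these 4 genes were all higher in Kit+ CD45+ than in Kit+ CD45- cells under both antibodies, a choice made after their values were seen. Each runs 5′ to 3′ on the gene's own strand up to the base before the transcript start, over 250 bases, except that Ltb is given over 182 bases, up to where another annotated coding transcript begins. Il7r lies at chr15:9529877-9530126 on the minus strand, Il2rg at chrX:101268256-101268505 on the minus strand, Cd27 at chr6:125237028-125237277 on the minus strand and Ltb at chr17:35194257-35194438 on the plus strand. Capitals mark exact matches to 4 short motifs searched on both strands: GAGGAA for PU.1 and related ETS factors, TGTGGT for RUNX factors, CTTTGA for Tcf/Lef factors and TGGGAA for Ikaros and related factors.
Il7r: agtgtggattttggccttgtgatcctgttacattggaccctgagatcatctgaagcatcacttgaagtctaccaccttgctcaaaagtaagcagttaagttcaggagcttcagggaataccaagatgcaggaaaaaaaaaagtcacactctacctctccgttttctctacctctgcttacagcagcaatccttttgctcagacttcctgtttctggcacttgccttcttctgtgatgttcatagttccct
Il2rg: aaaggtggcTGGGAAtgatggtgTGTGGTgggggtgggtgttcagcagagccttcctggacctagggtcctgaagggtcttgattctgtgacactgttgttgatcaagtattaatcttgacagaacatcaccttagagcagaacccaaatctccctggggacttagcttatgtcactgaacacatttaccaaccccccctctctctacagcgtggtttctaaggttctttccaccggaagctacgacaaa
Cd27: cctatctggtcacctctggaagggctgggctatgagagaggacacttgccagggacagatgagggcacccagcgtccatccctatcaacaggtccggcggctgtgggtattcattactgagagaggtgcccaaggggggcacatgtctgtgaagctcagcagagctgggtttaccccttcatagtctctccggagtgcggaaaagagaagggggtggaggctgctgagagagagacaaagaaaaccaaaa
Ltb: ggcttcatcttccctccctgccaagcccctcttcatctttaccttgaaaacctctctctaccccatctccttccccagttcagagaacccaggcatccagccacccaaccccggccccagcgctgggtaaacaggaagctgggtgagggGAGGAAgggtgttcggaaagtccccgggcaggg
Il2rg held TGGGAA 241 bases and TGTGGT 227 bases before its RefSeq start, and Ltb held GAGGAA 101 bases before its own. The Il7r and Cd27 windows held none of the 4 motifs, and no motif was shared by a pair of these windows. Among 32851 RefSeq promoter windows of 250 bases, GAGGAA or its reverse complement was present in 23.3%, TGTGGT in 14%, CTTTGA in 13.8% and TGGGAA in 21.6%. A match describes letters only, and each of these motifs is common in promoters.

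Il7r (ENSMUSG00000003882.4, chr15:9506161-9529876, minus strand, mm10), the specific chain of the interleukin 7 receptor, was found in Kit+ CD45+ cells and had 0 counts in all 16 CD45- libraries. The 4 IgG libraries of Kit+ CD45+ cells held 72, 61, 5 and 19 counts, or 4.79, 4.62, 0.381 and 1.7 CPM (replicates 1 to 4; mean 2.87 ± 2.18). The 4 anti-Dll4 libraries held 10, 18, 19 and 55 counts, or 0.931, 1.39, 1.63 and 3.86 CPM (1.95 ± 1.3). Every Kit+ CD45+ library was above every CD45- library, but the level was low and IgG replicate 3 stood close to the floor. Against the floor of 3 counts per library, the IgG mean was at least 8.2-fold higher than in Kit+ CD45- and at least 9.94-fold higher than in Kit- CD41+ CD45- cells. The corresponding bounds under anti-Dll4 were at least 4.48-fold and at least 6.25-fold. No p is given for these comparisons, because Il7r passed the low-count filter only through the Kit+ CD45+ libraries and so had to be higher there.

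Il2rg (ENSMUSG00000031304.18, chrX:101264378-101268255, minus strand), the gamma chain shared by several interleukin receptors, was present in all 24 libraries. In Kit+ CD45+ cells it stood at 34.2, 60.9, 51.6 and 43.3 CPM under IgG (47.5 ± 11.4) and at 52.5, 44.8, 37.6 and 48.8 CPM under anti-Dll4 (45.9 ± 6.4). Kit- CD41+ CD45- cells had 32.2, 38.3, 32.4 and 29.3 CPM under IgG (33 ± 3.75) and 27.5, 23, 27.4 and 44.7 CPM under anti-Dll4 (30.6 ± 9.61). Kit+ CD45- cells had 18.9, 21.3, 19.1 and 22.4 CPM under IgG (20.4 ± 1.72) and 23.6, 17.5, 14.7 and 18.4 CPM under anti-Dll4 (18.6 ± 3.74). The order of the means was thus the same under both antibodies, and the Kit+ CD45+ libraries lay above all Kit+ CD45- libraries. By edgeR's quasi-likelihood test the difference between both Kit+ populations was 1.22 on the log2 scale (SE 0.20, adjusted p = 0.000114) under IgG and 1.31 (SE 0.20, adjusted p = 3.76e-05) under anti-Dll4. Kit+ CD45+ and Kit- CD41+ CD45- libraries overlapped, and their log2 difference of 0.52 (SE 0.20, edgeR adjusted p = 0.04) under IgG and 0.58 (SE 0.20, adjusted p = 0.0226) under anti-Dll4 lay near the threshold. Leaving aside a globin covariate, that call was lost in 11 of 20 alternatives under IgG and in 10 of 20 under anti-Dll4, with adjusted p up to 0.187 and 0.135. Leaving out any 1 of 5 IgG libraries (Kit+ CD45+ replicates 2 and 3, Kit- CD41+ CD45- replicates 1, 3 and 4) or any 1 of 5 anti-Dll4 libraries (Kit+ CD45+ replicates 1 and 4, Kit- CD41+ CD45- replicates 1, 2 and 3) was enough to lose it, at log2 differences of 0.38 to 0.51 and 0.47 to 0.56. Kit+ CD45- cells were lower than Kit- CD41+ CD45- cells, with a log2 difference of -0.69 (SE 0.20, adjusted p = 0.0113) under IgG and -0.73 (SE 0.20, adjusted p = 0.00846) under anti-Dll4, and the latter became -0.49 (adjusted p = 0.0621) without anti-Dll4 replicate 4 of the Kit- CD41+ CD45- cells. Of the exonic bases of Il2rg, 30.5% are shared on the same strand with the gene model Gm20489, so its counts are uncertain.

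The recombinase genes were at or near 0 throughout. Rag1 (ENSMUSG00000061311.6, chr2:101638282-101649501, minus strand) had 4 counts in all: 2 in IgG replicate 1 of the Kit+ CD45- cells and 2 in anti-Dll4 replicate 3 of the Kit- CD41+ CD45- cells. None of the 8 Kit+ CD45+ libraries held a Rag1 count. Its neighbour Rag2 (ENSMUSG00000032864.4, chr2:101624718-101632529, plus strand) had 10 counts in all, in 3 of 24 libraries. These were 6 counts (0.421 CPM) in anti-Dll4 replicate 4 of the Kit+ CD45+ cells, 3 in anti-Dll4 replicate 3 of the Kit+ CD45- cells and 1 in anti-Dll4 replicate 1 of the Kit- CD41+ CD45- cells. All 3 libraries with Rag2 counts were anti-Dll4 libraries, but 9 of 12 anti-Dll4 libraries had none. Fitted without the low-count filter, the mean antibody effect on Rag2 over the populations had an unadjusted p of 0.0126 and an edgeR adjusted p of 0.677. Every IgG library held 0 Rag2 counts, so this p rests on 10 counts in 3 libraries and is no evidence of an antibody effect. A library with 0 counts of either gene allows a level up to its floor of 3 counts, and the libraries with 1 or 2 counts lie below that floor.

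Ighm (ENSMUSG00000076617.9, chr12:113418558-113422730, minus strand), the constant region gene of the immunoglobulin mu heavy chain, was abundant in Kit+ CD45+ cells and at or near 0 in the other populations. Under IgG the Kit+ CD45+ libraries held 209, 597, 403 and 730 counts, or 13.9, 45.2, 30.7 and 65.4 CPM (38.8 ± 21.9). Under anti-Dll4 they held 382, 903, 367 and 687 counts, or 35.6, 69.9, 31.6 and 48.2 CPM (46.3 ± 17.3). In Kit+ CD45- cells under IgG, replicates 2 and 3 held 11 and 3 counts and replicates 1 and 4 held 0 (0.46 ± 0.714 CPM), and all 12 remaining CD45- libraries held 0. No CD45- library came within reach of the lowest Kit+ CD45+ library, which was IgG replicate 1. The ratio of the means between both Kit+ populations under IgG was 84.4, and 1 library, replicate 2 of the Kit+ CD45- cells, held 11 of the 14 counts in the lower group. Against the floor, Ighm was at least 106-fold higher than in Kit+ CD45- cells under anti-Dll4. It was at least 134-fold higher than in Kit- CD41+ CD45- cells under IgG and at least 148-fold higher under anti-Dll4. Like Il7r, Ighm passed the filter only through the Kit+ CD45+ libraries, so no p is given for these differences. Ighm counts in Kit+ CD45+ cells thus came with mature B cell markers at 0.0896 to 2 CPM and macrophage markers at 256 to 2640 CPM in the same libraries, and the part of either in the Ighm level was not tested.

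Cd27 (ENSMUSG00000030336.14, chr6:125232622-125237010, minus strand), a TNF receptor family member found on lymphocytes and on some early progenitors, was also higher in Kit+ CD45+ cells. There it stood at 5.26, 4.47, 3.66 and 7.62 CPM under IgG (5.25 ± 1.71) and at 6.89, 2.09, 19.2 and 10.3 CPM under anti-Dll4 (9.62 ± 7.21). Levels in Kit+ CD45- cells were 0.0922, 0.82, 0.673 and 1.76 CPM under IgG (0.837 ± 0.692) and 1.09, 0.378, 0.4 and 0.219 CPM under anti-Dll4 (0.522 ± 0.389), from 1 to 14 counts per library. Kit- CD41+ CD45- cells had 0.513, 1.77, 1.5 and 1.78 CPM under IgG (1.39 ± 0.599) and 0.703, 1.21, 0.94 and 2.11 CPM under anti-Dll4 (1.24 ± 0.617). The Kit+ CD45+ libraries were above all others except for anti-Dll4 replicate 2, which at 2.09 CPM fell just below the highest Kit- CD41+ CD45- library. Against Kit+ CD45- cells, Cd27 was higher by 2.67 on the log2 scale (SE 0.65, edgeR adjusted p = 0.00534) under IgG and by 4.14 (SE 0.70, adjusted p = 0.000109) under anti-Dll4. These became 3.33 (adjusted p = 0.00315) without IgG replicate 4 and 4.73 (adjusted p = 0.00018) without anti-Dll4 replicate 1 of the Kit+ CD45- cells. Compared with the Kit- CD41+ CD45- population, the excess was 1.91 (SE 0.61, adjusted p = 0.0168) under IgG and 2.95 (SE 0.64, adjusted p = 0.000727) under anti-Dll4. The IgG call was lost without Kit+ CD45+ replicate 4 (1.68, adjusted p = 0.0505) and without Kit- CD41+ CD45- replicate 1 (1.63, adjusted p = 0.058). The CD45- populations differed by -0.76 (SE 0.66, adjusted p = 0.437) under IgG and -1.19 (SE 0.71, adjusted p = 0.223) under anti-Dll4, which did not pass the test.

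Ltb (ENSMUSG00000024399.5, chr17:35194439-35196320, plus strand) encodes lymphotoxin beta, a membrane ligand made by lymphoid cells. It varied widely among the Kit+ CD45+ libraries, which stood at 50, 2.12, 13.3 and 5.83 CPM under IgG (17.8 ± 21.9) and at 28.9, 6.89, 15.3 and 10.6 CPM under anti-Dll4 (15.4 ± 9.61). Kit- CD41+ CD45- cells had 5.22, 7.44, 6.11 and 4.66 CPM under IgG (5.86 ± 1.21) and 5.72, 3.02, 6.37 and 3.11 CPM under anti-Dll4 (4.56 ± 1.74). Kit+ CD45- cells had 0.0922, 1.64, 0.336 and 1.64 CPM under IgG (0.926 ± 0.828) and 1.64, 0.252, 0.2 and 0.437 CPM under anti-Dll4 (0.632 ± 0.679), from 1 to 13 counts per library. Kit+ CD45- libraries were thus below all libraries of the other populations. The log2 difference of Kit+ CD45+ from Kit+ CD45- cells was 4.32 (SE 0.84, edgeR adjusted p = 0.000655) under IgG and 4.61 (SE 0.88, adjusted p = 0.00039) under anti-Dll4. It became 2.99 (adjusted p = 0.00487) without IgG replicate 1 of the Kit+ CD45+ cells, and 5.75 (adjusted p = 0.000398) without anti-Dll4 replicate 1 of the Kit+ CD45- cells. The Kit+ CD45+ difference from Kit- CD41+ CD45- cells, 1.60 (SE 0.70, adjusted p = 0.0758) under IgG and 1.75 (SE 0.71, adjusted p = 0.0557) under anti-Dll4, did not pass the test. Leaving out IgG replicate 2 (1.98, adjusted p = 0.0222), IgG replicate 4 (1.89, adjusted p = 0.045) or anti-Dll4 replicate 2 (2.00, adjusted p = 0.0418) of the Kit+ CD45+ cells brought it past the threshold. So did, under anti-Dll4, a fit of only these groups (1.73, adjusted p = 0.00888), and DESeq2 gave an adjusted p of 0.05 there. In the other direction, the IgG difference was 0.28 (adjusted p = 0.79) without Kit+ CD45+ replicate 1, the library with the highest Ltb, and the anti-Dll4 difference was 1.26 (adjusted p = 0.191) without Kit+ CD45+ replicate 1. Kit+ CD45- cells were lower than Kit- CD41+ CD45- cells, by -2.72 (SE 0.82, adjusted p = 0.0152) under IgG and -2.86 (SE 0.88, adjusted p = 0.0162) under anti-Dll4. That call was lost without IgG replicate 1 (-2.30, adjusted p = 0.0532) or 3 (-2.45, adjusted p = 0.0507), or without anti-Dll4 replicate 2 (-2.59, adjusted p = 0.0531) or 3 (-2.50, adjusted p = 0.0562), all of the Kit+ CD45- cells, and the anti-Dll4 value became -4.02 (adjusted p = 0.00755) without replicate 1.

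**Figure D1:**
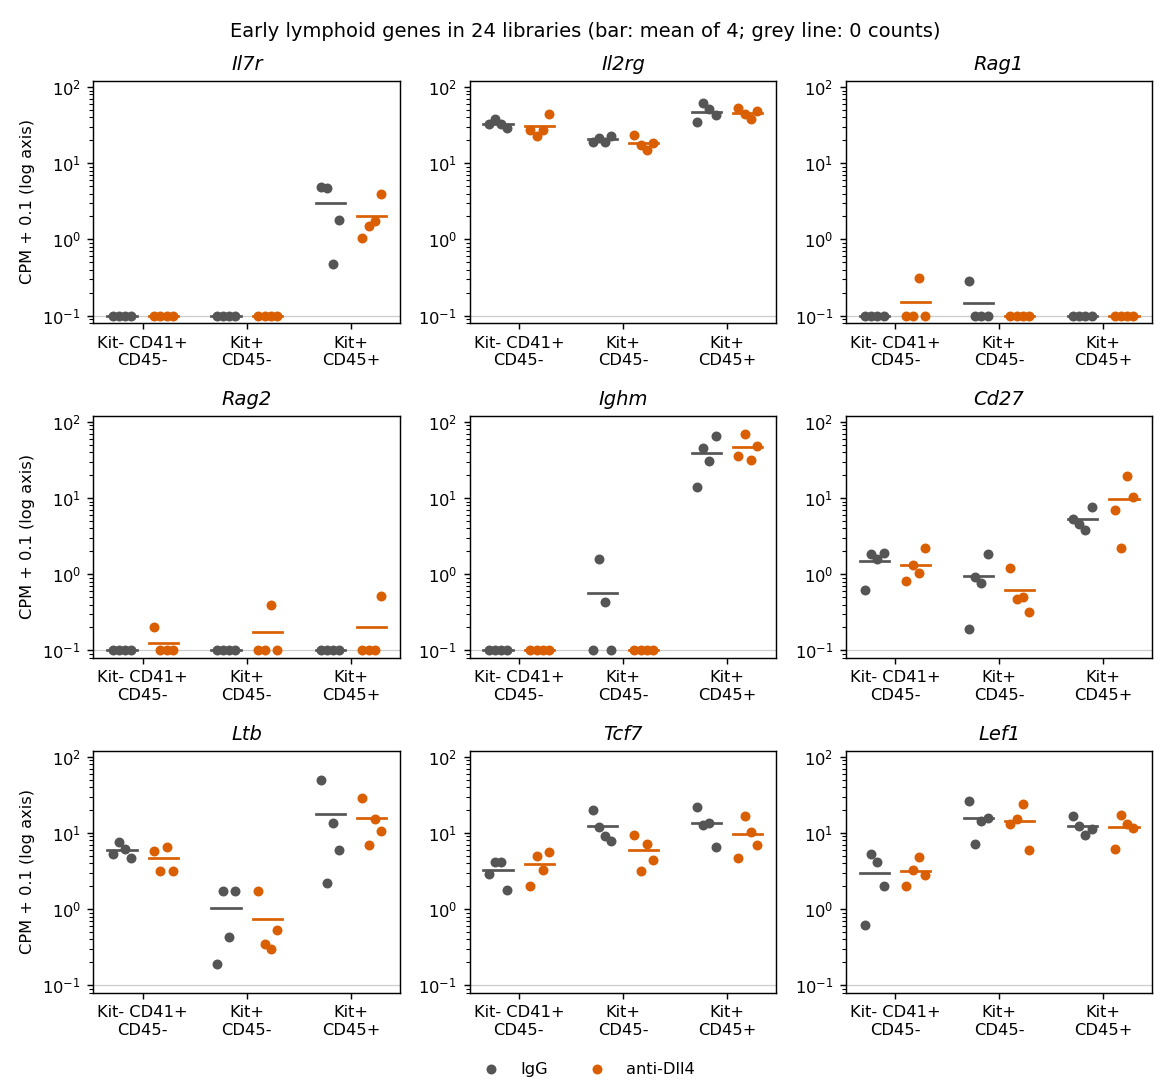
Levels of the 9 genes found in the tables, in CPM plus 0.1 on a log axis, by sorted population (horizontal axis) and antibody (grey for IgG, orange for anti-Dll4). Each point is 1 library, each bar the mean of 4, and the thin line marks 0 counts. Il7r is at 0 in all 16 CD45- libraries, Ighm in 14 of them, and Tcf7 and Lef1 are low in Kit- CD41+ CD45- cells.

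Tcf7 and Lef1 followed another pattern, with overlapping levels in both Kit+ populations and low levels in Kit- CD41+ CD45- cells. Tcf7 (ENSMUSG00000000782.15, chr11:52252371-52283014, minus strand), which encodes TCF-1, stood at 21.9, 12.7, 13.3 and 6.36 CPM in Kit+ CD45+ cells under IgG (13.6 ± 6.37) and at 4.56, 16.5, 10.1 and 6.95 CPM under anti-Dll4 (9.52 ± 5.17). Kit+ CD45- cells had 19.6, 11.8, 9.08 and 7.8 CPM under IgG (12.1 ± 5.31) and 9.29, 3.02, 7.1 and 4.37 CPM under anti-Dll4 (5.95 ± 2.8). Kit- CD41+ CD45- cells had 2.82, 4.07, 4.01 and 1.66 CPM under IgG (3.14 ± 1.14) and 1.91, 4.84, 3.13 and 5.45 CPM under anti-Dll4 (3.83 ± 1.61). Under IgG both Kit+ populations lay above all Kit- CD41+ CD45- libraries, while under anti-Dll4 the ranges overlapped. Under IgG the log2 difference from Kit- CD41+ CD45- cells was 2.10 (SE 0.46, edgeR adjusted p = 0.000883) for Kit+ CD45+ and 1.94 (SE 0.46, adjusted p = 0.0027) for Kit+ CD45- cells. Under anti-Dll4 it was 1.31 (SE 0.45, adjusted p = 0.0255) for Kit+ CD45+ cells and 0.64 (SE 0.46, adjusted p = 0.319) for Kit+ CD45- cells, the latter not past the test. The former was lost without Kit+ CD45+ replicate 2 (0.91, adjusted p = 0.136), Kit- CD41+ CD45- replicate 1 (1.09, adjusted p = 0.0894) or Kit- CD41+ CD45- replicate 3 (1.20, adjusted p = 0.0722). Both Kit+ populations differed by 0.17 (SE 0.43, adjusted p = 0.844) under IgG and 0.67 (SE 0.45, adjusted p = 0.281) under anti-Dll4. The anti-Dll4 value rested on single replicate numbers: it was 1.19 (adjusted p = 0.0405) with replicate 1 left out of every group and 0.04 (adjusted p = 0.97) with replicate 2 left out.

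Lef1 (ENSMUSG00000027985.14, chr3:131110471-131224356, plus strand), the related factor, stood at 16.6, 12.4, 9.37 and 11.1 CPM in Kit+ CD45+ cells under IgG (12.4 ± 3.07) and at 6.15, 17, 13.1 and 11.4 CPM under anti-Dll4 (11.9 ± 4.48). Kit+ CD45- cells had 26.6, 7.11, 14.1 and 15.5 CPM under IgG (15.8 ± 8.05) and 13, 15.2, 23.7 and 5.9 CPM under anti-Dll4 (14.5 ± 7.33). Kit- CD41+ CD45- cells had 0.513, 5.14, 4.11 and 1.89 CPM under IgG (2.91 ± 2.1) and 1.91, 3.12, 4.7 and 2.67 CPM under anti-Dll4 (3.1 ± 1.18). Every Kit+ library was above every Kit- CD41+ CD45- library of the same antibody, and the Kit+ populations overlapped. The log2 difference from Kit- CD41+ CD45- cells under IgG was 2.08 (SE 0.51, edgeR adjusted p = 0.00231) for Kit+ CD45+ and 2.44 (SE 0.51, adjusted p = 0.000857) for Kit+ CD45- cells. Under anti-Dll4 it was 1.94 (SE 0.51, adjusted p = 0.00402) and 2.23 (SE 0.51, adjusted p = 0.00179). Both Kit+ populations differed by -0.36 (SE 0.47, adjusted p = 0.661) under IgG and -0.29 (SE 0.47, adjusted p = 0.692) under anti-Dll4. Of the exonic bases of Lef1, 13.7% lie antisense to Gm43352. The library kit does not mark strand, so reads of these bases cannot be told apart by strand. How the counting treated them is not given in the sources used here.

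Of the 7 genes tested, 5 passed the low-count filter also without the Kit+ CD45+ libraries (Il2rg, Cd27, Ltb, Tcf7 and Lef1). Il7r and Ighm did not, so they are left out of the counts between populations, which are no account of all 10 genes. Between both Kit+ populations 3 of the 5, Il2rg, Cd27 and Ltb, were higher in Kit+ CD45+ cells under each antibody and 0 were lower. The background was 19.2% of all genes called under IgG (10% higher, 9.18% lower) and 29.2% under anti-Dll4 (16.6% higher, 12.6% lower). These and the following shares cover all genes tested, including any that passed the filter only through the Kit+ CD45+ libraries. They are thus not matched to the 5 genes. Of the same 5 genes, the ranges of Il2rg, Cd27 and Ltb did not overlap under either antibody, and those of Tcf7 and Lef1 did. Of all genes, 10.9% were higher and 8.79% lower without overlap under IgG, and 15.1% higher and 9.36% lower under anti-Dll4. The separation comes from the same values as the calls and is no further support for them. With Kit- CD41+ CD45- cells as the comparator, 4 of the 5 were higher in Kit+ CD45+ cells under each antibody, all but Ltb. There 37.2% of all genes were called under IgG (19.7% higher) and 37.6% under anti-Dll4 (20.4% higher). Between the CD45- populations, Tcf7 and Lef1 were higher and Il2rg and Ltb lower in Kit+ CD45- cells under IgG (4 of 5, background 27.9%, 14% higher and 13.8% lower). Under anti-Dll4, Lef1 was higher and Il2rg and Ltb lower (3 of 5, background 29.9%, 14.7% higher and 15.2% lower). The median log2 difference over the 5 genes was 1.22 between both Kit+ populations under IgG and 1.31 under anti-Dll4, beside 0.038 and 0.096 over all genes tested.

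**Figure D2:**
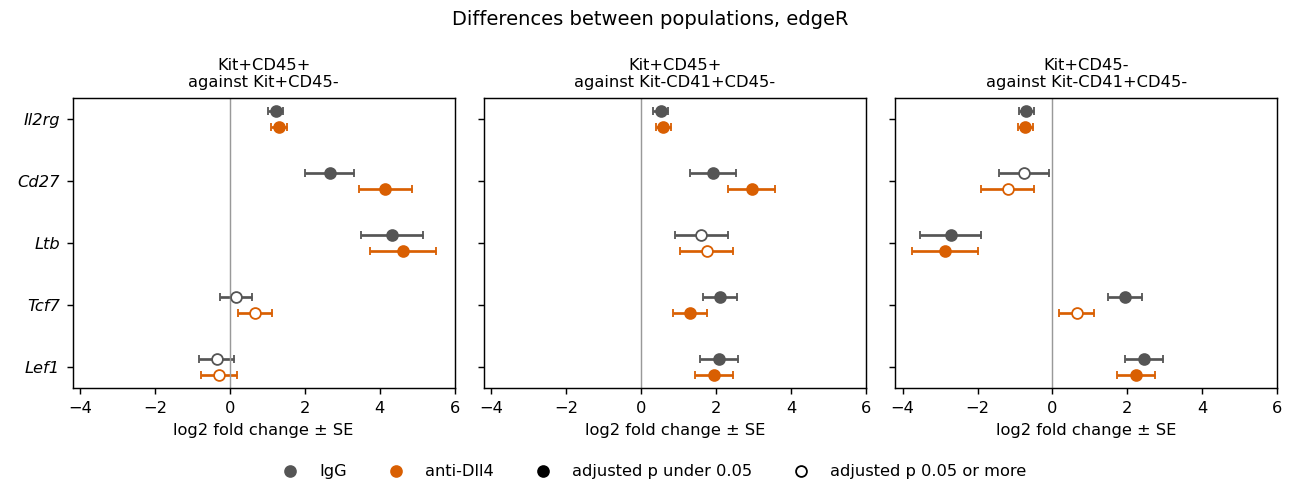
Log2 fold change ± SE between sorted populations for the 5 genes with counts in every library, under IgG (grey) and anti-Dll4 (orange), from the edgeR fit. Filled points have an adjusted p under 0.05. Il2rg, Cd27 and Ltb lie to the right in the comparison of both Kit+ populations, while Tcf7 and Lef1 lie near 0 there and to the right in the comparisons with Kit- CD41+ CD45- cells.

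Scaled by exon length (GENCODE M21), so that genes can be compared, Ighm at 20.6 ± 11.6 and Il2rg at 19.9 ± 4.78 CPM per kb had the highest levels in Kit+ CD45+ cells under IgG. Ltb at 11.7 ± 14.5 and Tcf7 at 5.16 ± 2.43 CPM per kb came next, followed by Cd27 at 2.25 ± 0.734, Lef1 at 1.41 ± 0.349 and Il7r at 0.616 ± 0.468. Each gene overlapped the next in this order within their SD, and Ltb, whose SD exceeded its mean, overlapped all the others. The GENCODE M21 coordinates of Il7r differ from those in the deposited data, so its scaled level is less certain. In Kit+ CD45- cells under IgG, Il2rg at 8.56 ± 0.722 CPM per kb was highest, then Tcf7 at 4.6 ± 2.02 and Lef1 at 1.8 ± 0.916. In Kit- CD41+ CD45- cells under IgG the order was Il2rg at 13.8 ± 1.57, Ltb at 3.86 ± 0.799 and Tcf7 at 1.2 ± 0.434 CPM per kb.

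Blocking Dll4 did not move any of the 7 genes past the test in any population. None was called by edgeR in Kit+ CD45- cells (0% of all genes called, 1733 with an unadjusted p under 0.05), in Kit- CD41+ CD45- cells (0% called, 435 unadjusted) or in Kit+ CD45+ cells (0.0064% called, 453 unadjusted). None was called for the mean effect over the populations (0% called, 1311 unadjusted) or for a difference of the effect between them (0.0256% called, 631 unadjusted). With DESeq2, 75, 2, 14, 31 and 25 genes were called in these 5 tests and 0 of them were of this set. The IgG and anti-Dll4 ranges overlapped for all 7 genes in all 3 populations. For Il7r in both CD45- populations and Ighm in Kit- CD41+ CD45- cells, every library held 0 counts. No call and no separation was possible there, so these outcomes were fixed in advance. The mean effect over the populations takes in these groups and had no SE for Il7r and Ighm, so it tells nothing about either gene. Over all genes, ranges without overlap were higher in 0.916% and lower in 2.23% of genes for Kit+ CD45-, 1.07% and 1.15% for the Kit- fraction, and 0.96% and 0.839% for Kit+ CD45+. In Kit+ CD45- cells, Tcf7 was 12.1 ± 5.31 CPM under IgG and 5.95 ± 2.8 under anti-Dll4, a log2 difference of -1.02 (SE 0.45) with an unadjusted p of 0.0337 and an adjusted p of 0.417. This difference became -0.67 (adjusted p = 0.921) without IgG replicate 1. Ighm in the same cells, with 14 counts under IgG and 0 under anti-Dll4, had an unadjusted p of 0.0347 and an adjusted p of 0.419.

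In Kit+ CD45+ cells all 7 genes had an edgeR adjusted p of 1 for the antibody. The log2 difference of Cd27 was 0.87 (SE 0.57, unadjusted p = 0.142), and 0.30 without anti-Dll4 replicate 3, the library with the highest Cd27. For Il7r it was -0.55 (SE 0.81), for Tcf7 -0.51 (SE 0.43), for Ighm 0.26 (SE 0.54) and for Ltb -0.21 (SE 0.67). The Ltb value became 1.12 without IgG replicate 1 and 0.03 without anti-Dll4 replicate 2, so its direction rested on single libraries. Il2rg and Lef1 differed by -0.05 each (SE 0.20 and 0.47). The standard errors show how unequal the precision was: 0.20 for Il2rg against 0.81 for Il7r, whose libraries held 5 to 72 counts.

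**Figure D3:**
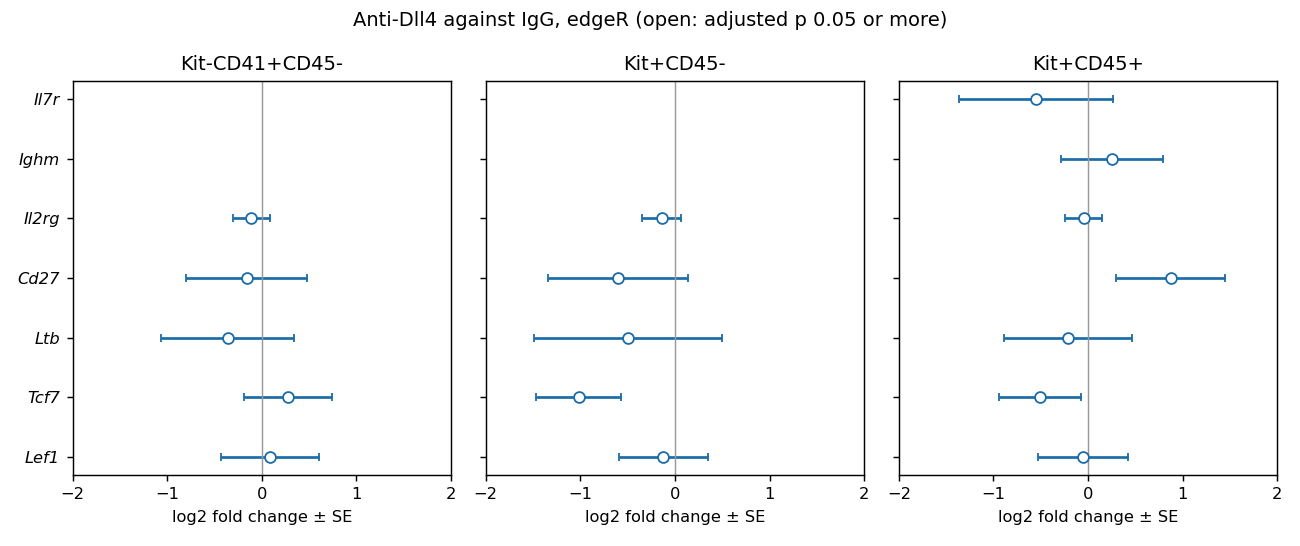
Log2 fold change ± SE of anti-Dll4 against IgG in each population, from the edgeR fit. Open points have an adjusted p of 0.05 or more, which holds for every value plotted, and Il7r and Ighm are plotted in Kit+ CD45+ cells only. The widest intervals belong to Il7r in Kit+ CD45+ and Ltb in Kit+ CD45- cells.

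Within the Kit+ CD45+ cells the genes did not rise and fall together from library to library. IgG replicate 1 had the highest Il7r (4.79 CPM), Ltb (50 CPM) and Tcf7 (21.9 CPM) of the 8 libraries and the lowest Ighm (13.9 CPM) and Il2rg (34.2 CPM). It also had the lowest summed macrophage markers, 256 CPM, against 1780 to 2640 CPM in the other IgG libraries and 1020 to 2100 CPM under anti-Dll4. Cd27 was highest in anti-Dll4 replicate 3 (19.2 CPM), where Ltb was 15.3 CPM and Il7r 1.63 CPM. Ighm was highest in anti-Dll4 replicate 2 (69.9 CPM), the library with the lowest Cd27 (2.09 CPM). The part of macrophage content in these differences was not tested. Without IgG replicate 1, Il2rg, Cd27 and Ltb all kept their call between both Kit+ populations under IgG.

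**Figure D4:**
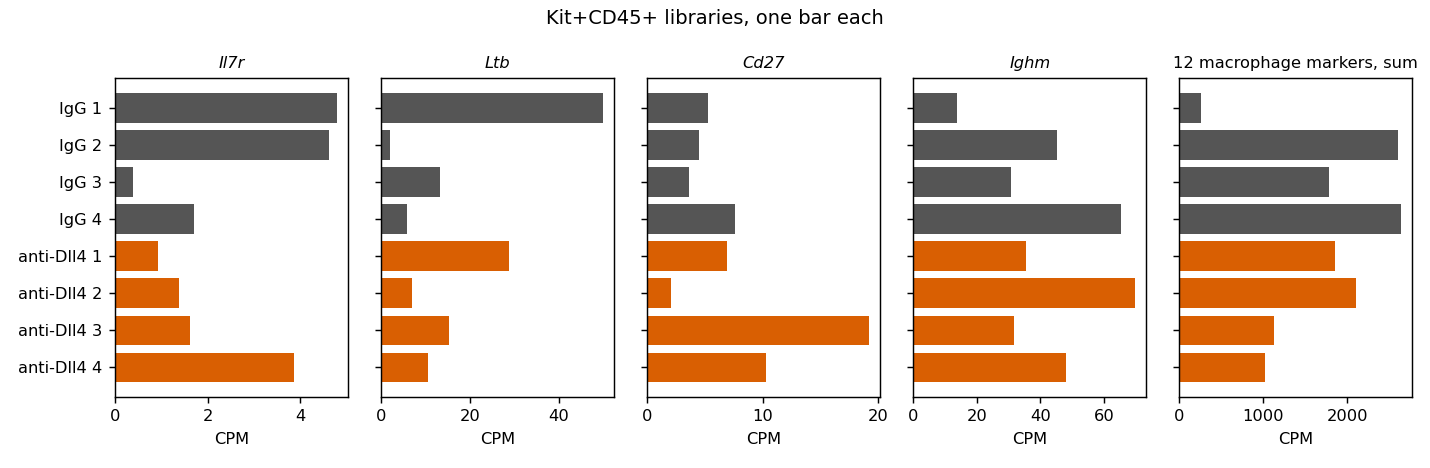
Levels in CPM of Il7r, Ltb, Cd27 and Ighm and the summed level of 12 macrophage markers in each of the 8 Kit+ CD45+ libraries, 1 bar per library, with IgG in grey and anti-Dll4 in orange. IgG 1 has the highest Il7r and Ltb, the lowest Ighm and the lowest macrophage sum, 256 CPM.

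The genes most alike in pattern were found by the root mean square (RMS) difference of centred log2 levels over the 6 group means, a description in which the points share their libraries. Il7r was nearest to Gapt (0.072), Itgam (0.087), which encodes the myeloid integrin CD11b, and Scimp (0.113). Itgam stood at 2.82 ± 1.72 CPM in Kit+ CD45+ cells under IgG and at 0 in all 4 CD45- groups. Il7r was at 0 there too, so any gene with a like level only in Kit+ CD45+ cells would lie near it. A like limit holds for Ighm, which was at or near 0 in the CD45- groups. Such nearness does not tell the lineage that a transcript comes from. Ighm was nearest to Cd86 (0.299), a costimulatory ligand of antigen-presenting cells, the chemokine gene Ccl12 (0.363) and Ptprc (0.399). Ltb was nearest to Rgs1 (0.234), the lysozyme gene Lyz2 (0.266) and Myo1f (0.383), and under IgG Lyz2 stood at 195 ± 131 CPM in Kit+ CD45+, 102 ± 17.5 in Kit- CD41+ CD45- and 20.8 ± 11.1 in Kit+ CD45- cells. Il2rg was nearest to Gabarapl1 (0.059), Syngr2 (0.077) and Ccdc40 (0.084), and Cd27 to Oit3 (0.199), Fam105a (0.242) and Cyp4b1 (0.246). Tcf7 was nearest to Fxyd6 (0.133), Myo1d (0.159) and Plcg1 (0.167), and Lef1 to Map4k5 (0.096), Sult5a1 (0.12) and Etv5 (0.131). No nearest gene was shared between members of the set.

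The partners of the receptor chains were compared through a list of 17 genes of gamma-chain receptors and their signalling, 12 of them tested. As for the members, list counts cover the genes that passed the filter also without the Kit+ CD45+ libraries, here all 12. The shares of all genes beside them, here and in the lists below, cover all genes tested without that restriction. Between both Kit+ populations 6 were higher and 0 lower in Kit+ CD45+ cells under IgG (median log2 difference 0.95), where 10% of all genes were higher and 9.18% lower. Under anti-Dll4 7 were higher and 0 lower (1.36, with 16.6% and 12.6% of all genes). Against Kit- CD41+ CD45- cells 7 were higher and 1 lower under IgG (0.88, with 19.7% and 17.5% of all genes), and 6 and 1 under anti-Dll4 (0.96, with 20.4% and 17.3%). Here and in the lists below, levels and tests of single genes are those under IgG unless anti-Dll4 is named. Il15, a cytokine gene, was 37.8 ± 14 CPM in Kit+ CD45+ and 7.01 ± 0.696 CPM in Kit+ CD45- cells (log2 difference 2.43, SE 0.27, edgeR adjusted p = 7.5e-07). Il21r, a receptor chain that pairs with Il2rg, was 7.69 ± 2.89 and 0.329 ± 0.388 CPM (4.53, SE 0.69, adjusted p = 4.51e-05). Jak1, the kinase bound to such partner chains, was 131 ± 16.6 and 73.5 ± 8.78 CPM (0.83, SE 0.13, adjusted p = 8.26e-05).

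For the recombinase, 9 of 10 genes of DNA joining were tested. Of these, 1 was higher and 1 lower in Kit+ CD45+ than in Kit+ CD45- cells under IgG (median -0.13), and 1 was higher and 2 lower under anti-Dll4 (-0.10). These shares are near those of all genes, 10% higher and 9.18% lower under IgG and 16.6% and 12.6% under anti-Dll4. The nuclease gene Dclre1c (Artemis) was higher, at 34.2 ± 6.84 against 19.9 ± 6.37 CPM (0.79, SE 0.21, edgeR adjusted p = 0.00924), and the Ku subunit gene Xrcc5 was lower, at 46.9 ± 7.11 against 94.4 ± 13.5 CPM (-1.01, SE 0.20, adjusted p = 0.00078). Hmgb2, a DNA-bending protein gene, was 182 ± 9.59 and 220 ± 19.5 CPM (-0.28, SE 0.13, adjusted p = 0.134). These joining genes were thus present in libraries with 0 Rag1 counts.

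Of 20 early lymphoid and B-lineage genes, 10 were tested and 9, all but Flt3, passed the filter without the Kit+ CD45+ libraries. Of these 9, 3 were higher and 0 lower in Kit+ CD45+ than in Kit+ CD45- cells under IgG (median 0.44, with 10% of all genes higher) and likewise under anti-Dll4 (0.44, with 16.6%). Against Kit- CD41+ CD45- cells 6 were higher and 0 lower under IgG (1.42, with 19.7% of all genes higher) and under anti-Dll4 (2.15, with 20.4%). Irf8, a factor used in both myeloid and B lineages, was 57.3 ± 8.65 CPM in Kit+ CD45+ and 3.48 ± 2.04 CPM in Kit+ CD45- cells (log2 difference 4.02, SE 0.70, edgeR adjusted p = 0.000196). Ikzf1, which encodes Ikaros, was 17.5 ± 2.68 and 13.7 ± 4.34 CPM (0.36, SE 0.29, adjusted p = 0.433), and 2.15 ± 0.638 CPM in Kit- CD41+ CD45- cells. Foxo1, a regulator of Il7r and the Rag genes in B progenitors, was 22.1 ± 2.33 and 17.7 ± 5.82 CPM (0.32, SE 0.30, adjusted p = 0.526), and 4.25 ± 0.756 CPM in Kit- CD41+ CD45- cells. Under IgG, Ikzf1 and Foxo1 thus shared the pattern of Tcf7 and Lef1, with both Kit+ populations above Kit- CD41+ CD45- cells. For Kit+ CD45+ and Kit+ CD45- cells the edgeR adjusted p was 8.15e-08 and 1.05e-06 (Ikzf1) and 3.54e-06 and 3.68e-05 (Foxo1). Under anti-Dll4, Tcf7 did not pass between Kit+ CD45- and Kit- CD41+ CD45- cells (0.64, SE 0.46, edgeR adjusted p = 0.319).

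Of 22 early T-lineage and innate lymphoid genes, 9 were tested and 7, all but Dtx1 and Zap70, passed the filter without the Kit+ CD45+ libraries. Of these 7, 1 was higher and 0 lower in Kit+ CD45+ than in Kit+ CD45- cells under IgG (median 0.99, with 10% of all genes higher), and 4 were higher and 0 lower under anti-Dll4 (1.60, with 16.6%). Compared with Kit- CD41+ CD45- cells, 3 were higher and 0 lower under IgG (2.22, with 19.7%) and 5 and 0 under anti-Dll4 (2.06, with 20.4%). Tox, a nuclear factor of T cell development, was the 1 gene called between both Kit+ populations under IgG, at 15.5 ± 6.1 and 2.84 ± 1.52 CPM (2.45, SE 0.50, edgeR adjusted p = 0.0011), and was called under anti-Dll4 too (2.62, SE 0.51, adjusted p = 0.00045). The kinase gene Lck was 35 ± 6.46, 22.6 ± 12.6 and 2.37 ± 1.15 CPM in Kit+ CD45+, Kit+ CD45- and Kit- CD41+ CD45- cells, with an adjusted p of 2.35e-07 between the first and the last. Under IgG the kinase gene Zap70 stood at 1.25 ± 0.374 CPM in Kit+ CD45+, 0.932 ± 0.443 in Kit+ CD45- and 0 in Kit- CD41+ CD45- libraries. Under anti-Dll4 it stood at 0.7 ± 0.303, 0.063 ± 0.126 and 0.0502 ± 0.1 CPM in the same order.

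For Cd27 and Ltb, 13 of 14 partner genes were tested and 11, all but Lta and Tnfrsf1b, passed the filter without the Kit+ CD45+ libraries. Of these 11, 3 were higher and 1 lower in Kit+ CD45+ than in Kit+ CD45- cells under IgG (median 1.09, with 10% of all genes higher and 9.18% lower), and 4 were higher and 0 lower under anti-Dll4 (0.89, with 16.6% and 12.6%). With Kit- CD41+ CD45- cells as comparator the counts were 3 higher and 2 lower under IgG (1.03, with 19.7% and 17.5%) and 4 and 2 under anti-Dll4 (1.20, with 20.4% and 17.3%). Ltbr, the receptor for lymphotoxin, was 27.1 ± 6.06 CPM in Kit+ CD45+ and 12.6 ± 7.72 CPM in Kit+ CD45- cells (1.09, SE 0.40, edgeR adjusted p = 0.0572), and 5.15 ± 1.82 CPM in Kit- CD41+ CD45- cells (adjusted p = 8.38e-05 against Kit+ CD45+). Traf5, an adaptor of CD27, was at 2.5 ± 1.03, 7.07 ± 2.41 and 31.8 ± 8.49 CPM in Kit+ CD45+, Kit+ CD45- and Kit- CD41+ CD45- cells under IgG, and both of its differences from Kit+ CD45+ cells passed the test (adjusted p = 0.0114 and 2.68e-07). Under anti-Dll4 it was at 4.63 ± 2.08, 5.29 ± 3.11 and 26.6 ± 2.89 CPM, and the difference between both Kit+ populations did not pass (-0.15, SE 0.41, edgeR adjusted p = 0.825). Tnfrsf1a, a TNF receptor gene, was 77.1 ± 11.7, 26.6 ± 13.6 and 3.84 ± 1.66 CPM in the same order.

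For Tcf7 and Lef1, 16 of 19 partners and Wnt targets were tested and 13, all but Apcdd1, Notum and Rnf43, passed the filter without the Kit+ CD45+ libraries. Of these 13, 0 were higher and 1 lower in Kit+ CD45+ than in Kit+ CD45- cells under IgG (median 0.16, with 10% of all genes higher and 9.18% lower), and 3 were higher and 0 lower under anti-Dll4 (0.16, with 16.6% and 12.6%). Against Kit- CD41+ CD45- cells 4 were higher and 0 lower under IgG (0.68, with 19.7% and 17.5%) and 6 and 2 under anti-Dll4 (0.17, with 20.4% and 17.3%). Ctnnb1, which encodes beta-catenin, was 271 ± 44.2, 203 ± 60.6 and 94 ± 7.71 CPM in Kit+ CD45+, Kit+ CD45- and Kit- CD41+ CD45- cells (edgeR adjusted p = 3e-06 and 0.000224 for each Kit+ population against Kit- CD41+ CD45- cells). Tcf7l2, a further gene of the Tcf/Lef family, was 22.9 ± 4.34, 28 ± 6.34 and 7.03 ± 2.53 CPM (adjusted p = 2.54e-05 and 6.61e-06). Axin2, a widely used Wnt target, was low throughout, at 0.102 ± 0.0806, 0.968 ± 1.12 and 0.545 ± 0.319 CPM, and was the 1 gene called lower between both Kit+ populations under IgG (-3.19, SE 1.08, adjusted p = 0.0402). Under anti-Dll4 it stood at 0.212 ± 0.247, 1.22 ± 0.779 and 1.33 ± 1.4 CPM, and that difference did not pass (-2.50, SE 1.02, edgeR adjusted p = 0.0672).

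Because Ets1os could not be matched, the protein-coding genes Ets1 and its neighbour Fli1 are given for that locus. Ets1, an ETS factor of endothelium and lymphocytes, was 148 ± 23.9, 103 ± 60.7 and 12.3 ± 3.57 CPM in Kit+ CD45+, Kit+ CD45- and Kit- CD41+ CD45- cells under IgG (edgeR adjusted p = 5.93e-08 and 9.97e-07 against Kit- CD41+ CD45- cells). Fli1 was 64 ± 4.67, 55 ± 17.8 and 138 ± 9.72 CPM, lower in both Kit+ populations (adjusted p = 0.000182 and 3.96e-05). None of the genes in these 6 lists and at this locus was called in an antibody comparison by edgeR.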

How the data were processed

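Per the labels' protocols, polyA RNA of sorted cells was turned into cDNA, amplified by long-distance PCR, sheared and sequenced on an Illumina HiSeq instrument, with a library kit that does not mark strand. Tools named in the submitters' processing notes, with build mm10, are STAR, HTSeq, DESeq2, FastQC and CASAVA 1.4. For the step of each tool, the annotation release and the strand setting, the answer is not given in the sources used here. Raw counts per gene, as deposited, were tested. The deposited table of log2 values, normalized by the authors, was used only for gene names and positions, and 1 of its columns, which matches no sample, was left out.

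Counts were fitted with edgeR 4.0.16 (R 4.3.3, limma 3.58.1): TMM, filterByExpr by group, robust quasi-likelihood F-tests, 6 group coefficients over 24 libraries, 18 residual degrees of freedom, biological coefficient of variation 0.343. P-values were adjusted by Benjamini-Hochberg over all genes tested, at a threshold of 0.05. Exon lengths came from GENCODE M21. DESeq2 1.42.0, other scalings, no filter, globin handling, replicate blocks and leaving out libraries were alternatives.

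The genes, lists and comparisons were chosen with earlier results of these data known. Named pathway genes are the up to 3 per list with the smallest p over the population comparisons under IgG, and likeness names the 3 nearest tested protein-coding genes. The restriction of counts between populations to genes that pass the filter without the Kit+ CD45+ libraries, the promoters shown, and the members and populations for which single antibody values are printed, were chosen after values were seen.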

Additional observations from a re-analysis of the deposited data

Results flagged for a closer look

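Ltb in Kit+ CD45- cells under anti-Dll4 was 1.64 CPM (12 counts) in replicate 1, apart from the other 3 replicates at 0.2 to 0.437 CPM. Those 3 held 2 counts each, below the floor of 3 counts. The gap divided by the group's range was 0.835, above Dixon's 95% critical value for 4 samples. It was the 1 such case among 35 groups checked over the 9 genes, and chance flags about 1 in 20.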

How the results depend on the processing

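No member of the set was called for the antibody under any alternative. Over every antibody comparison of a tested member (the Kit+ CD45+ comparison only for Il7r and Ighm), 54 of 513 refitted values changed sign and 0 were called. Rag1 and Rag2, with 4 and 10 counts in all, fell below the filter, and Il7r had 259 counts in all. Numbers of members called are given here over all 7 tested, Il7r and Ighm included. Both of these passed the filter only through the Kit+ CD45+ libraries, so their calls for those cells were fixed in advance. With the library's globin level as a covariate, which cannot be told apart from population, members called fell to 0 in the 4 comparisons of Kit+ CD45+ cells and to 2 between the CD45- populations under IgG. Calls over all genes fell too, between both Kit+ populations from 2998 to 0 under IgG and from 4560 to 0 under anti-Dll4. For Kit+ CD45+ against Kit- CD41+ CD45- cells they fell from 5815 to 13 and from 5875 to 6. Between the CD45- populations under IgG they fell from 4357 to 2319. The same covariate turned the sign of Tcf7 in Kit+ CD45+ against Kit+ CD45- cells under IgG (-0.058, SE 3.213). It did so for Il7r in the same comparison under anti-Dll4 (-0.509, SE 1.425). Lef1 turned in Kit+ CD45+ against Kit- CD41+ CD45- cells (-1.835, SE 2.803 under IgG and -2.441, SE 3.121 under anti-Dll4). The antibody effect on Ltb in Kit+ CD45+ cells turned as well (0.147, SE 0.63). Each of these values was smaller in size than its SE. With no filter, 0 members were left below it. The main fit called 27.9% of all genes between the CD45- populations under IgG and 29.9% under anti-Dll4. Leaving out libraries or replicates gave 2 to 5 members called there under IgG and 1 to 3 under anti-Dll4. It moved the antibody effect in Kit+ CD45+ cells from -0.274 to 0.334 for Lef1, -0.944 to 0.049 for Tcf7, -0.023 to 0.63 for Ighm, -1.294 to 0.041 for Il7r, -0.706 to 1.115 for Ltb and -0.25 to 0.11 for Il2rg. It also moved this effect from 0.153 to 1.208 for Cd27. In Kit+ CD45+ against Kit+ CD45- cells under IgG it moved Lef1 from -0.603 to 0.015 and Tcf7 from -0.16 to 0.51, and under anti-Dll4 Lef1 from -0.553 to 0.057 and Tcf7 from 0.044 to 1.191, with a call gained without replicate 1. In the labels, the 3 populations of 1 antibody and number share a set number (8 sets), and whether a set is 1 pool of embryos is not given. Of pairs with the same number, 0 of 12 between antibodies and 6 of 24 between populations of a set correlated above 0.1, which did not meet the criterion for pairing and does not show that the libraries are unpaired. With the replicate block by number, Il2rg, Cd27 and Ltb stayed called between both Kit+ populations under each antibody. The main fit called 19.2% of all genes there under IgG and 29.2% under anti-Dll4. Between the CD45- populations under IgG, 5 members in place of 4 were called with this block, Ighm being the gain. The antibody effect on Ltb in Kit+ CD45+ cells turned to 0.084. With the replicate block by set, no member gained or lost a call between populations. Over all genes, DESeq2 called 75, 2, 14, 31 and 25 genes in the antibody tests, where edgeR called 0, 0, 1, 0 and 4. With upper-quartile scaling the median log2 difference of Kit+ CD45- against Kit- CD41+ CD45- cells moved from 0.056 to 0.159 under IgG and from 0.068 to 0.208 under anti-Dll4, where the higher share of calls went from 49% to 61.3%. For Kit+ CD45+ against Kit+ CD45- cells it went from 52.2% to 41.8% under IgG and from 56.8% to 46.2% under anti-Dll4.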
